A study of Oryza sativa Japonica Group with 21 samples.

Results

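The comparison described here set developing rice stamens against the just-expanded leaf. Its members were all probe sets of the rice array except the manufacturer's control probe sets. These were 57258 of 57381 probe sets in the table, read on 18 of the 21 arrays of the series. The stamen side held 15 arrays, 3 for each of stages 2, 3, 4, 5 and 6, and its level for a probe set was the mean of the 5 stage means. The leaf side held 3 arrays of the third leaf at the time it had just expanded. Every array carried RNA of Oryza sativa ssp. japonica cultivar Zhonghua 15, with no mutant or treated plants. Stamens were dissected under a microscope from spikelets, and the study sectioned a part of each panicle in paraffin to check the stage of the rest. The series also holds 3 arrays of the third leaf primordium, dissected from soaked embryos, which entered the estimate of the spread and are quoted for some genes, but were not compared here. The stamens were still developing and the leaf had expanded, so organ and maturity cannot be told apart. The labels give pots in a growth chamber or the experimental field as growing places without saying which organ came from which, so organ and growing place cannot be told apart either. For all arrays alike, the labels list a day length of 11 h, nights of 13 h and a temperature within 2 °C of 30 °C. The hour at which organs were collected is not stated.

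A stamen and a leaf are both lateral organs, and the study used leaves as controls because it counts them as homologous. A young stamen imports its carbon and nitrogen from the rest of the plant, divides and lays out the lobed anther, while an expanded leaf fixes carbon, assimilates nitrogen, exports sucrose and meets pathogens and drought through a large exposed surface. Membrane carriers move water, sugars, nitrogen compounds and metals between cells. Walls are built by cellulose synthases, loosened by expansins and stiffened by lignin. Defence proteins such as chitinases and germin-like proteins are laid down in exposed tissue, and transcription factors set the identity and growth of the organ.

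Values are log2 signals from the authors' robust multi-array average (RMA), so a difference of 1 is a 2-fold change. A probe set was called higher or lower where limma's moderated test gave an adjusted p below 0.05 and the log2 difference, stamen minus expanded leaf, was at least 1 in size. By this rule 7623 probe sets (13.3% of those tested) were higher in stamens and 5708 (9.97%) were lower, 23.3% in all. The 15 stamen arrays and the 3 leaf arrays did not overlap for 6079 (10.6%) of the higher and 4501 (7.86%) of the lower probe sets. At the level of genes, each read by the probe set with the highest mean over all arrays, 4657 of 17905 genes (26.0%) were higher, 3488 (19.5%) were lower, and the median difference was 0.10. These shares are the background for every count of genes called higher or lower below. Counts at an unadjusted p below 0.05 use no fold threshold, and no share over all genes was computed for them. Without the fold threshold, 12965 probe sets were higher and 14878 lower even at an adjusted p below 0.05, so such counts run high in general.

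Replicates resembled each other less on the leaf side. Pearson's r between arrays of the same stamen stage lay between 0.984 and 0.9945, across probe sets, against 0.9314 to 0.9486 between the 3 leaf arrays. The median standard deviation over probe sets was 0.136 to 0.167 within the stamen stages, against 0.249 within the expanded leaf. Standard errors and p-values below rest on 1 spread shared by all groups. They are therefore too small for genes that varied widely between the leaf arrays. With a separate spread for the expanded leaf, limma called 7095 probe sets higher and 5442 lower. Leaf replicates 2 and 3 both stood apart. Leaf replicate 2 was the lowest of the 3 leaf arrays for 16 of 25 aquaporins, 21 of 32 jasmonate genes and 6 of 9 cellulose synthases, against 5683 of all 17905 genes. Over all genes replicate 1 was the lowest most often, for 6464. Leaf replicate 3 was the highest for 13 of the aquaporins, 19 of the jasmonate genes and all 9 cellulose synthases, against 6852 of all genes. The 3' minus 5' difference on the actin and GAPDH control probe sets was 1.27 to 3.41 on the stamen arrays, against 3.37 on leaf replicate 3 and 1.73 and 1.96 on the other leaf arrays. A fit with that difference as a covariate called 7657 probe sets higher and 5694 lower. Where leaving out 1 leaf array ended the call of a gene named below or moved its difference by over 1.5 times, the value without that array is given. This was done for the brightest probe set of a gene, and not for dimmer probe sets that disagreed with it.

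The organ labels were checked on markers. All 7 floral MADS-box genes of the stamen list were higher in stamens, and all 8 photosynthesis genes were lower. The carpel and ovule genes MADS13, MADS21 and DL were not called by limma, with differences of 0.33, -0.02 and 0.23, and 0 of the 3 had an unadjusted p below 0.05. DL, which in rice acts in the carpel and in the leaf midrib, had signals of 7.59 to 8.24 (median 7.88) on stamen arrays, against 7.87, 7.41 and 7.72 on leaf arrays. Of the 5 late tapetum and pollen wall genes found, only CYP703A3, which makes hydroxylated fatty acids for pollen wall and cuticle, was called higher, and its stage means were 3.03, 3.42, 3.46, 4.78 and 6.20 from stage 2 to stage 6. Each array holds RNA of a whole organ, so fewer cells of a type and less RNA per cell cannot be told apart in any result below.

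Of the named genes with the largest differences, several on the stamen side are known from cell division and the floral MADS-box family. Outside these, MAKIBA3, the rice counterpart of the growth coactivator GRF-INTERACTING FACTOR, had signals of 11.06 to 12.16 (median 11.87) on the stamen arrays, against 4.59, 4.49 and 4.43 on the leaf arrays. The groups were far apart, by 7.37 ± 0.12 (standard error, adjusted p = 9.1e-18). AGO1D, an Argonaute that binds small RNAs, had signals of 12.53 to 13.62 (median 13.38) on the stamen arrays, against 5.93, 5.59 and 6.70 on the leaf arrays, a difference of 7.17 ± 0.20 (adjusted p = 5.8e-15). The DNA methyltransferase gene MET1B differed by 6.87 ± 0.15 (adjusted p = 2.9e-16), the COBRA-like gene BC1L2 by 6.59 ± 0.20 (adjusted p = 1.6e-14), the cell cycle regulator gene RSS1 by 6.43 ± 0.15 (adjusted p = 4.1e-16) and the CCCH zinc finger gene OsC3H23 by 6.57 ± 0.17 (adjusted p = 1.7e-15). For each of these the lowest stamen array was above the highest leaf array, which was a condition for entry to this ranking. On the leaf primordium arrays AGO1D averaged 9.92, RSS1 10.39, OsC3H23 10.05 and BC1L2 9.90, against 5.62 for MET1B.

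On the other side, 1 of the 2 probe sets of Pi21 had the second largest fall among named genes. Pi21 encodes a proline-rich protein with a metal-binding domain, and loss of its function is known to give resistance to rice blast. Signals of that probe set were 2.68 to 3.05 (median 2.89) on the stamen arrays, against 12.92, 11.13 and 11.90 on the leaf arrays. The stamen arrays lay close together, far below all leaf arrays, and the difference was -9.10 ± 0.21 (adjusted p = 5.4e-16). The brighter probe set of the gene was also lower, but at -3.18 ± 0.36 (adjusted p = 7.8e-07). The β-glucosidase gene BGLU22 had signals of 3.51 to 5.85 (median 3.98) on the stamen arrays, against 11.61, 12.50 and 12.42 on the leaf arrays, and BGLU16, another of that family, had 2.60 to 3.33 (median 2.97) on the stamen arrays, against 9.13, 11.74 and 10.85 on the leaf arrays. Their differences were -7.98 ± 0.34 (adjusted p = 1.9e-12) and -7.56 ± 0.31 (adjusted p = 9e-13). A brighter probe set of BGLU16 was lower too, at -7.00 ± 0.37 (adjusted p = 2.9e-11). The chloroplast thioredoxin-like gene cdsp32 was lower by both probe sets, at -7.73 ± 0.15 (adjusted p = 4.1e-17) and, for the brighter one, -4.81 ± 0.23 (adjusted p = 6.8e-12). OsPEX11-4, a gene of peroxisome proliferation, fell by 7.03 on the log2 scale and BURP16, of the BURP-domain family, by 6.83. Here too, lack of overlap between stamen and leaf arrays was a condition for entry to the ranking. Leaf primordium means of the ranked probe sets were 2.87 for Pi21, 3.35 for BGLU16, 3.6 for cdsp32 and 3.49 for OsPEX11-4. They were 5.31 for BURP16 and 7.93 for BGLU22. Most of these genes were thus also low in the young leaf.

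**Figure D1:**
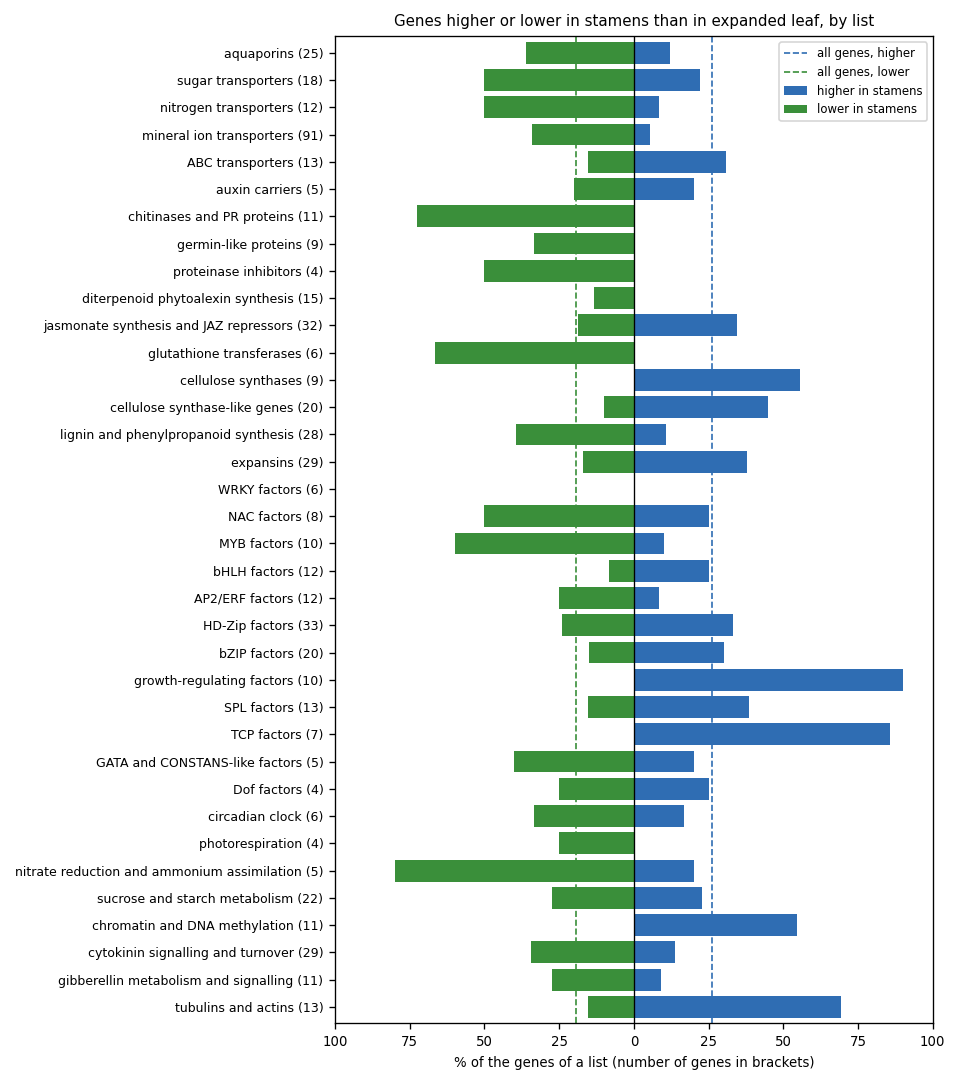
Share of the genes of each list, the marker lists left out, called higher in stamens (blue, to the right) or lower in stamens (green, to the left) than in expanded leaf, in % of the genes of the list, with the number of genes in brackets and dashed lines at the shares over all genes, 26.0% and 19.5%. The growth-regulating factors, TCP factors and tubulins and actins reach furthest to the right, and nitrate reduction and ammonium assimilation, the chitinases and the glutathione transferases furthest to the left.

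Carriers were lower in stamens more often than higher. Over 164 transporter genes in 6 lists, 18 were higher, 58 were lower and 88 were not called, with a median difference of -0.51. Water channels, sugar carriers, nitrogen carriers and mineral ion carriers each had more genes lower than higher, while the ABC transporters had 4 higher and 2 lower of 13.

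Aquaporins are channels for water and small neutral solutes in the plasma membrane (PIP), the tonoplast (TIP) and other membranes. Of 25 genes, 3 were higher, 9 lower and 13 not called. PIP2-2, a plasma membrane water channel, had signals of 4.46 to 5.86 (median 4.54) on the stamen arrays, against 12.20, 9.02 and 12.60 on the leaf arrays. PIP2-7, of the same class, had 4.30 to 5.24 (median 4.52) on the stamen arrays, against 12.19, 7.69 and 11.84 on the leaf arrays. Stamen arrays were near the bottom of the scale for both, and leaf replicate 2 was well below the other leaf arrays. The differences were -6.58 ± 0.46 (adjusted p = 1.5e-09) and -5.94 ± 0.56 (adjusted p = 7.5e-08), and -7.71 and -7.38 without leaf replicate 2. Lsi6, which moves silicic acid out of the xylem in leaves, had signals of 4.17 to 5.19 (median 4.35) on the stamen arrays, against 9.84, 9.36 and 11.83 on the leaf arrays, a difference of -5.89 ± 0.30 (adjusted p = 2.3e-11). TIP1-2, a tonoplast channel, stood at 6.35 to 6.77 (median 6.61) on the stamen arrays and at 11.12, 6.78 and 11.35 on the leaf arrays. On leaf replicate 2 it was thus only just above the highest stamen array, and its difference of -3.18 ± 0.57 (adjusted p = 0.00016) became -4.67 without that replicate. NIP1-1, of the nodulin-26-like class, went the other way. It had signals of 9.91 to 11.23 (median 10.57) on the stamen arrays, against 7.05, 6.58 and 6.90 on the leaf arrays, a difference of 3.78 ± 0.15 (adjusted p = 5.4e-13). PIP2-6 also rose, by 1.69 ± 0.27 (adjusted p = 4.9e-05).

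Of 18 SWEET, sucrose and monosaccharide carrier genes, 4 were higher, 9 lower and 5 not called. SWEET11, a sucrose exporter needed for pollen and also known as Xa13, had signals of 7.26 to 8.92 (median 8.04) on the stamen arrays, against 4.57, 4.59 and 4.63 on the leaf arrays, a difference of 3.52 ± 0.18 (adjusted p = 2.1e-11). The groups did not overlap, and stages 4 and 5 had the highest stamen means, 8.83 and 8.53. The sucrose transporter gene SUT5 was higher by 1.12 ± 0.20 (adjusted p = 0.00015), mostly through stages 2 and 3. Its stage means were 7.18, 5.85, 5.27, 5.00 and 5.03 from stage 2 to stage 6. Among the genes that fell, the monosaccharide carrier gene MST3 had signals of 4.31 to 7.46 (median 4.67) on the stamen arrays, against 10.77, 11.41 and 11.19 on the leaf arrays, a difference of -6.16 ± 0.21 (adjusted p = 6.8e-14). SWEET2B, of the clade placed in the vacuole membrane, was lower by both of its probe sets, with differences of -5.01 ± 0.24 (adjusted p = 7.4e-12) and -6.92 ± 0.28 (adjusted p = 9.9e-13). SWEET14, a plasma membrane exporter, differed by -4.10 ± 0.24 (adjusted p = 1.1e-10) and SWEET1B by -4.53 ± 0.37 (adjusted p = 1.4e-08). SUT1, a sucrose uptake carrier of the plasma membrane, had signals of 6.43 to 6.83 (median 6.55) on the stamen arrays, against 10.29, 7.24 and 10.14 on the leaf arrays. Leaf replicate 2 was again the lowest, and the difference of -2.65 ± 0.39 (adjusted p = 1.7e-05) became -3.64 without it. SUT2, the vacuolar sucrose carrier, was read by 2 probe sets that disagreed, one lower, at -2.20 ± 0.18 (adjusted p = 1.8e-08), and the other higher, at 3.03 ± 0.24 (adjusted p = 7.5e-09).

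Carriers of nitrogen compounds and the enzymes that assimilate nitrogen were mostly lower in stamens. Of 12 nitrogen carrier genes 1 was higher and 6 were lower, and of 5 genes of nitrate reduction and ammonium assimilation 1 was higher and 4 were lower. AMT1-1, a high-affinity ammonium carrier, had signals of 7.07 to 8.52 (median 7.35) on the stamen arrays, against 12.24, 12.71 and 13.08 on the leaf arrays, a difference of -5.20 ± 0.20 (adjusted p = 3.2e-13). The urea carrier gene DUR3 had 5.90 to 6.40 (median 6.10) on the stamen arrays, against 8.43, 9.82 and 11.53 on the leaf arrays, a difference of -3.80 ± 0.35 (adjusted p = 6.2e-08). The groups did not overlap for either gene, and the 3 leaf values of DUR3 were spread widely. AMT2-1 differed by -2.60 ± 0.22 (adjusted p = 2.1e-08), and the nitrate carrier gene NRT2.3 was the only one called higher, at 1.58 ± 0.16 (adjusted p = 1.4e-07). NAR2.2, a partner protein of nitrate carriers, rested on 1 array, with 4.19, 4.53 and 8.31 on leaf arrays, and its difference of -1.80 ± 0.51 (adjusted p = 0.0071) became -0.48 without leaf replicate 3, no longer called.

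NIA1, nitrate reductase, had signals of 3.49 to 5.94 (median 4.58) on the stamen arrays, against 9.22, 8.31 and 12.94 on the leaf arrays, a difference of -5.67 ± 0.60 (adjusted p = 3.2e-07). The plastid glutamine synthetase gene GLN2 had 8.37 to 8.71 (median 8.58) on the stamen arrays, against 13.63, 12.11 and 12.88 on the leaf arrays, a difference of -4.30 ± 0.19 (adjusted p = 2.8e-12). The cytosolic glutamine synthetase genes did not move together. GLN1-2 fell, with 5.63 to 7.0 (median 6.18) on the stamen arrays, against 11.44, 10.66 and 11.30 on the leaf arrays. Its difference was -4.83 ± 0.17 (adjusted p = 1.5e-13), GLN1-1 differed by -1.42 ± 0.17 (adjusted p = 2.2e-06), and GLN1-3 was higher by 1.53 ± 0.17 (adjusted p = 6.8e-07). Of the glycolate oxidase genes, whose products act in photorespiration, GLO5 had 7.36 to 8.76 (median 7.87) on the stamen arrays, against 13.27, 13.11 and 13.11 on the leaf arrays, a difference of -5.26 ± 0.17 (adjusted p = 4.5e-14). The probe sets of GLO1 disagreed. The brighter one was not called, at 0.82 ± 0.17 (adjusted p = 0.00076), and the other was lower, at -4.33 ± 0.11 (adjusted p = 1.8e-15).

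Mineral carriers formed the longest list. Of 91 genes 5 were higher, 31 lower and 55 not called, with a median difference of -0.53. The potassium carrier gene HAK16 had signals of 4.10 to 5.30 (median 4.62) on the stamen arrays, against 9.58, 9.09 and 10.47 on the leaf arrays, a difference of -5.12 ± 0.21 (adjusted p = 8.5e-13). NRAMP4, also named for its uptake of aluminium, had 6.36 to 7.69 (median 6.76) on the stamen arrays, against 11.08, 11.10 and 11.09 on the leaf arrays. The 3 leaf values of NRAMP4 were nearly equal, and the difference was -4.25 ± 0.12 (adjusted p = 7.2e-15). The copper carrier gene COPT1 differed by -4.12 ± 0.23 (adjusted p = 7e-11) and the potassium carrier gene HAK22 by -3.85 ± 0.13 (adjusted p = 4.8e-14). YSL7 was the largest of the 5 rises. This gene, of the yellow stripe-like metal-chelate carriers, had 6.65 to 7.84 (median 7.24) on the stamen arrays, against 4.62, 4.76 and 4.56 on the leaf arrays, a difference of 2.60 ± 0.24 (adjusted p = 5e-08), and the magnesium carrier gene MRS2-H differed by 2.41 ± 0.15 (adjusted p = 2.6e-10). HMA2, a zinc pump, was higher on average by 1.41 ± 0.24 (adjusted p = 7.8e-05), but its stage means were 6.03, 5.46, 4.47, 4.12 and 3.73, and stamen and leaf arrays overlapped.

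Among 13 ABC transporters, ABCG32 had signals of 6.39 to 7.37 (median 6.83) on the stamen arrays, against 4.75, 4.73 and 4.95 on the leaf arrays, a difference of 2.08 ± 0.19 (adjusted p = 6.3e-08), without overlap. ABCG36 was higher by 2.15 ± 0.40 (adjusted p = 0.0002), mostly through the early stages, with stage means of 10.18, 8.96, 8.55, 7.40 and 7.19. mdr17 fell, with 2.95 to 3.54 (median 3.12) on the stamen arrays, against 7.71, 7.89 and 9.59 on the leaf arrays, a difference of -5.27 ± 0.25 (adjusted p = 6e-12). Of the 5 PIN auxin carriers found, PIN5A, of the group placed in the endoplasmic reticulum, had 3.84 to 4.77 (median 4.24) on the stamen arrays, against 9.15, 6.18 and 9.54 on the leaf arrays, a difference of -4.05 ± 0.43 (adjusted p = 3.3e-07). PIN3A was higher by 1.39 ± 0.31 (adjusted p = 0.0011), with overlap, and without leaf replicate 2 it was 0.75 and not called.

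**Figure D2:**
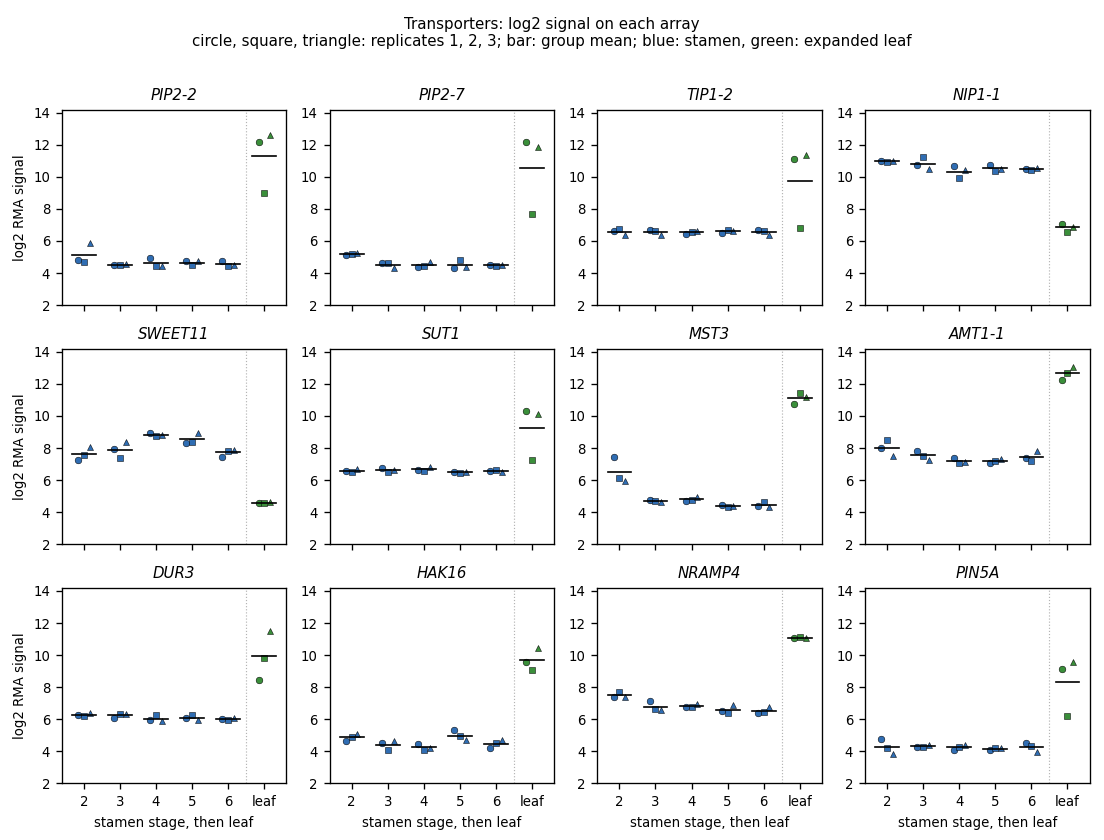
Log2 signals of 12 transporter genes on each of the 15 stamen arrays (blue, by stage) and the 3 expanded leaf arrays (green), with symbols for replicates and bars for group means. NIP1-1 and SWEET11 lie higher on the stamen arrays, and the other 10 genes lie lower. Leaf replicate 2 (square) is the lowest leaf value of PIP2-2, PIP2-7, TIP1-2, SUT1, HAK16, PIN5A and NIP1-1.

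Of 22 genes of sucrose and starch metabolism 5 were higher and 6 lower. Sucrose synthase, which splits imported sucrose, was read by SUS1 with 10.35 to 12.57 (median 11.77) on the stamen arrays, against 5.88, 5.70 and 5.91 on the leaf arrays, a difference of 5.89 ± 0.23 (adjusted p = 5e-13). SUS3 and OsSUS2 were higher by 1.85 ± 0.26 (adjusted p = 1.4e-05) and 1.21 ± 0.27 (adjusted p = 0.0013), although OsSUS2 was at 0.59 and not called without leaf replicate 3. SUS5 was lower, at -1.67 ± 0.17 (adjusted p = 1.7e-07). The cell wall invertase genes went both ways. CIN2, known for grain filling, was higher by 2.37 ± 0.26 (adjusted p = 5.6e-07), and CIN4 and CIN1 were lower, at -3.75 ± 0.17 (adjusted p = 3.1e-12) and -3.34 ± 0.38 (adjusted p = 1e-06).

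Defence genes were lower or not called in most lists. Over 77 genes in 6 lists 11 were higher, all of them in the list of jasmonate genes, 25 were lower and 41 were not called. Of 11 chitinase and PR-protein genes 8 were lower and none higher, with a median of -1.55, and at an unadjusted p below 0.05 limma had 10 lower and 0 higher. Cht11, a chitinase, had signals of 3.15 to 3.84 (median 3.35) on the stamen arrays, against 9.99, 7.27 and 8.25 on the leaf arrays, a difference of -5.11 ± 0.32 (adjusted p = 2.7e-10). The other 7 genes that fell were between -1.16 and -2.49, among them PBZ1, a PR10 protein gene induced by probenazole, at -2.12 ± 0.51 (adjusted p = 0.0022). Without leaf replicate 3, PBZ1 was at -1.19, Cht1 at -1.66 instead of -2.49, and Cht6 at -0.82 instead of -1.49 and no longer called. Without leaf replicate 2, Cht6 was at -2.26. PBZ1, Cht1, Cht6 and Cht10 had stamen arrays within the range of the leaf arrays. The stage 2 means of these 4 genes were 7.71, 4.56, 6.51 and 8.07, against 5.83, 3.08, 4.87 and 6.07 at stage 6, although none of them passed the test over stages.

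Germin-like proteins are secreted oxidase-type proteins of basal resistance. Of 9 genes 3 were lower and none higher, and 5 and 1 at an unadjusted p below 0.05. GER7 had signals of 3.34 to 3.96 (median 3.70) on the stamen arrays, against 7.73, 8.23 and 9.55 on the leaf arrays, a difference of -4.81 ± 0.24 (adjusted p = 1.2e-11). GER6 and GLP2 were high on 1 leaf array, with 6.90, 10.68 and 6.95 for GER6 and 6.83, 10.62 and 6.71 for GLP2. The stamen arrays stayed below all 3 leaf arrays for both genes. The difference of GER6 was -2.16 ± 0.48 (adjusted p = 0.0012) and became -0.91 without leaf replicate 2, below the size required for a call, while that of GLP2 was -3.29 ± 0.49 (adjusted p = 2.4e-05) and -2.01 without it, still called. The NAC factor gene NAC45 had the same shape on the leaf side, at 6.76, 10.87 and 7.97.

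The oryzacystatins, inhibitors of cysteine proteinases, were high in both organs. OC-I had 10.92 to 12.81 (median 11.94) on the stamen arrays, against 14.03, 14.73 and 13.89 on the leaf arrays, a difference of -2.25 ± 0.22 (adjusted p = 1.6e-07), and OC-II differed by -2.61 ± 0.37 (adjusted p = 1.4e-05). Of 15 genes of diterpenoid phytoalexin synthesis, 2 were lower and 13 not called. CYP76M7, a hydroxylase of phytocassane synthesis, stood at 2.80 to 3.07 (median 2.93) on stamen arrays and at 3.04, 8.34 and 6.24 on leaf arrays, so the lowest leaf array was at the stamen level. Its difference was -2.95 ± 0.59 (adjusted p = 0.00043), and -1.72 without leaf replicate 2. Of 6 glutathione transferase genes 4 were lower, with GSTU6 at -2.62 ± 0.19 (adjusted p = 3.5e-09) and GSTZ3 at -2.16 ± 0.15 (adjusted p = 1.9e-09).

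Of 32 genes of jasmonate synthesis and the TIFY (JAZ) repressors of its response, 11 were higher and 6 lower. The lipoxygenase gene LOX5 had signals of 11.05 to 11.98 (median 11.64) on the stamen arrays, against 9.79, 8.45 and 10.11 on the leaf arrays, a difference of 2.12 ± 0.24 (adjusted p = 8e-07). AOS1, an allene oxide synthase, was higher by 1.63 ± 0.35 (adjusted p = 0.00088), and its relative AOS2 was lower, with 4.23 to 4.72 (median 4.54) on the stamen arrays, against 7.31, 8.70 and 7.29 on the leaf arrays, a difference of -3.24 ± 0.20 (adjusted p = 2.5e-10). JAR1, which conjugates jasmonate with isoleucine, fell, with 5.62 to 8.30 (median 6.96) on the stamen arrays, against 10.22, 10.21 and 9.27 on the leaf arrays, a difference of -2.94 ± 0.18 (adjusted p = 2.6e-10). Of the 11 genes higher, 7 were TIFY genes, and leaf replicate 2 was often far below the other leaf arrays. TIFY11E had 11.17 to 12.36 on the stamen arrays, against 10.88, 4.60 and 10.19 on the leaf arrays. Its difference of 3.30 ± 0.78 (adjusted p = 0.0019) became 1.32 without that replicate. TIFY10C differed by 3.66 ± 0.70 (adjusted p = 0.00032), with leaf values of 5.72, 4.34 and 10.05, and TIFY11A by 3.08 ± 0.67 (adjusted p = 0.00097), with leaf values of 8.69, 5.15 and 10.47, and by 1.60 without that replicate. Without leaf replicate 2 the list had 7 genes higher and 6 lower, since TIFY10A, TIFY11B, TIFY11C and TIFY11D were then no longer called, at 0.38, 0.62, 1.25 and 0.50 instead of 1.01, 2.38, 2.76 and 1.38. Without leaf replicate 3, TIFY11C was at 4.35 and TIFY11D at 2.25. TIFY6A and TIFY6B were lower, by -1.74 ± 0.20 (adjusted p = 1.1e-06) and -1.65 ± 0.23 (adjusted p = 9.1e-06), without overlap.

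Over 86 wall genes in 4 lists 28 were higher and 18 lower, and the counts differed from list to list. Of 9 cellulose synthase genes 5 were higher and none lower (7 and 0 at an unadjusted p below 0.05), of 20 cellulose synthase-like genes 9 were higher and 2 lower, and of 28 lignin genes 3 were higher and 11 lower.

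CESA6, a cellulose synthase catalytic subunit, had signals of 12.11 to 12.99 (median 12.45) on the stamen arrays, against 8.44, 6.22 and 11.08 on the leaf arrays. All stamen arrays lay above all leaf arrays, but the leaf arrays were spread widely, and the difference of 3.92 ± 0.57 (adjusted p = 1.5e-05) became 2.74 without leaf replicate 2 and 5.17 without leaf replicate 3. CESA5 differed by 2.99 ± 0.51 (adjusted p = 9e-05), and by 1.91 without leaf replicate 2. CESA1 differed by 2.95 ± 0.58 (adjusted p = 0.00042), with leaf values of 9.10, 5.94 and 11.06, and by 1.57 without that replicate. A second probe set of CESA1 was not called, at 0.10 ± 0.12 (adjusted p = 0.5). CESA8 was called at 1.63 ± 0.50 (adjusted p = 0.012), but was 0.51 without leaf replicate 2 and then not called, and 2.65 without leaf replicate 3. CESA4, one of 3 synthases of secondary walls, rose with less spread. It had 7.71 to 8.41 (median 7.90) on the stamen arrays, against 5.04, 5.50 and 6.80 on the leaf arrays, a difference of 2.15 ± 0.24 (adjusted p = 7.7e-07). The other 2, CESA7 and CESA9, had low signals in both organs and were not called, at -0.19 ± 0.10 (adjusted p = 0.12) and -0.24 ± 0.12 (adjusted p = 0.12).

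Among the genes for other wall glucans, CSLC9, of the group that makes the backbone of xyloglucan, had signals of 11.02 to 11.88 (median 11.38) on the stamen arrays, against 6.95, 5.01 and 8.04 on the leaf arrays, a difference of 4.75 ± 0.38 (adjusted p = 8.6e-09). CSLA9 and CSLA1, of the mannan synthase group, were higher by 3.78 ± 0.21 (adjusted p = 5.7e-11) and 2.92 ± 0.22 (adjusted p = 4.2e-09). CSLE1 was lower, with 5.37 to 6.16 (median 5.68) on the stamen arrays, against 9.25, 10.26 and 9.25 on the leaf arrays, a difference of -3.87 ± 0.17 (adjusted p = 2.2e-12). None of these 4 genes had overlapping groups, a trait that the choice of genes from longer lists preferred.

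Of 29 expansin genes 11 were higher and 5 lower. EXPA7 had signals of 12.19 to 12.79 (median 12.60) on the stamen arrays, against 6.23, 5.96 and 6.55 on the leaf arrays, a difference of 6.30 ± 0.14 (adjusted p = 2.2e-16). EXPA16 differed by 5.05 ± 0.16 (adjusted p = 2.7e-14) and EXPB17 by 3.75 ± 0.20 (adjusted p = 4e-11). On the other side, EXPA2 had 5.65 to 7.08 (median 5.88) on the stamen arrays, against 10.61, 10.62 and 10.86 on the leaf arrays, a difference of -4.68 ± 0.14 (adjusted p = 9.2e-15). The expansin-like gene EXLA1 was lower, at -3.48 ± 0.23 (adjusted p = 7.7e-10), with stage means of 10.35, 8.42, 8.38, 7.41 and 6.48.

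Lignin genes were led by CAD8C, of the cinnamyl alcohol dehydrogenase family, with 2.64 to 3.36 (median 3.04) on the stamen arrays, against 10.31, 9.39 and 8.82 on the leaf arrays, a difference of -6.51 ± 0.18 (adjusted p = 7.1e-15). The 4-coumarate:CoA ligase gene 4CL3 had 3.49 to 4.18 (median 3.82) on the stamen arrays, against 7.27, 6.86 and 9.17 on the leaf arrays, a difference of -3.99 ± 0.29 (adjusted p = 2.4e-09). The laccase gene LAC7 was lower, at -3.14 ± 0.50 (adjusted p = 4.8e-05), with leaf values of 8.81, 4.65 and 5.19, and at -1.84 without leaf replicate 1. CAD7, also known as FLEXIBLE CULM1, was the largest rise of the list. It had 5.40 to 8.88 (median 7.34) on the stamen arrays, against 4.63, 4.21 and 3.74 on the leaf arrays, a difference of 3.16 ± 0.23 (adjusted p = 3e-09), and its stage means climbed through 5.90, 6.82, 7.38, 8.10 and 8.56. The 2 probe sets of 4CL4 disagreed, at -2.01 ± 0.19 (adjusted p = 1.1e-07) and 1.03 ± 0.23 (adjusted p = 0.001). The second value was only just above the size required for a call.

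**Figure D3:**
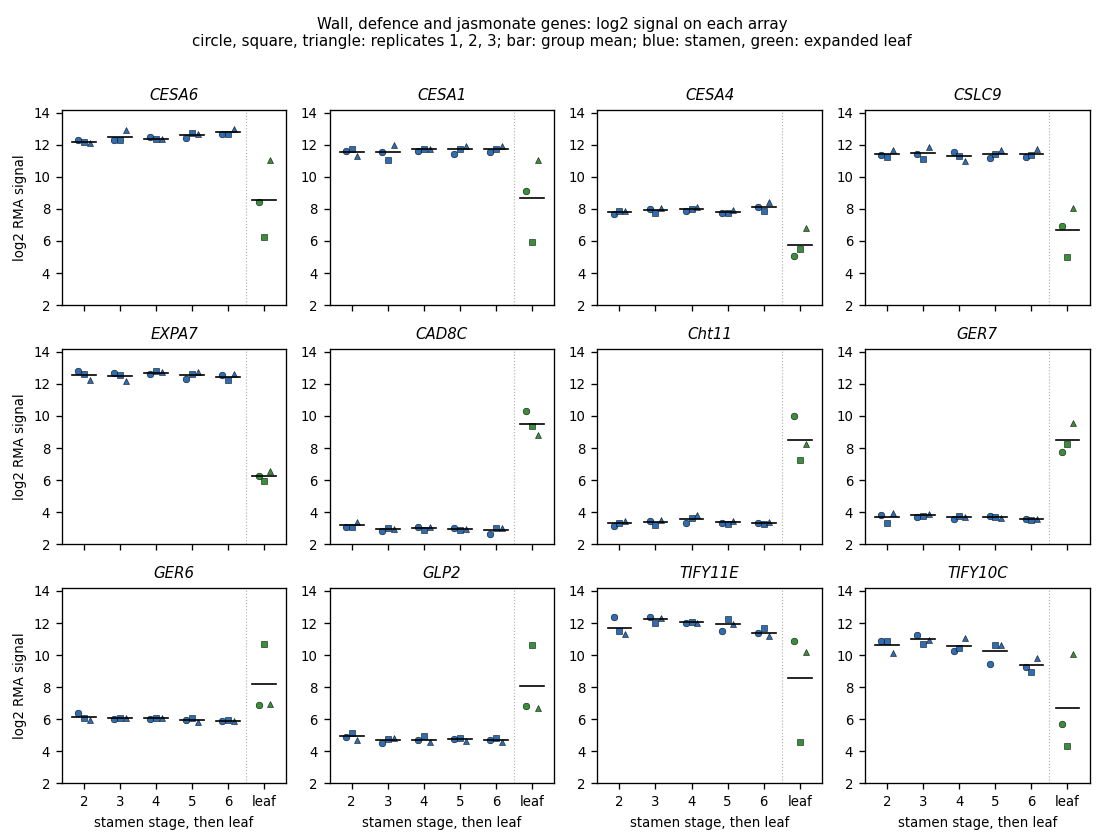
Log2 signals of 12 wall, defence and jasmonate genes on each stamen array (blue, by stage) and each expanded leaf array (green), with symbols for replicates and bars for group means. CESA6, CESA1, CSLC9, TIFY11E and TIFY10C are spread widely over the 3 leaf arrays, GER6 and GLP2 are high on leaf replicate 2 (square), and CAD8C, Cht11 and GER7 lie below 4 on all stamen arrays.

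Transcription factors as a whole had 46 of 140 genes higher, 30 lower and 64 not called, and families differed. The growth-regulating factors (GRFs), which keep cells dividing in young organs, had 9 of 10 genes higher, none lower and a median difference of 4.00 (9 higher and 0 lower at an unadjusted p below 0.05). GRF6 had signals of 11.58 to 12.57 (median 12.17) on the stamen arrays, against 5.37, 5.63 and 5.42 on the leaf arrays, a difference of 6.64 ± 0.14 (adjusted p = 1.2e-16). GRF8 had 9.45 to 10.80 (median 10.09) on the stamen arrays, against 4.19, 4.02 and 4.71 on the leaf arrays, a difference of 5.83 ± 0.17 (adjusted p = 1.1e-14). GRF4, known as a regulator of grain size, had 10.87 to 11.64 (median 11.43) on the stamen arrays, against 6.27, 6.01 and 5.61 on the leaf arrays, a difference of 5.33 ± 0.13 (adjusted p = 1.2e-15). The 9 genes had no overlap between stamen and leaf arrays, which also held for 6079 of all 7623 probe sets called higher. GRF7 had 1 leaf array near the stamen arrays, with leaf values of 5.60, 9.04 and 6.19, and GRF11 was at similar levels in both organs, with 10.40 to 11.48 (median 11.30) on the stamen arrays, against 11.34, 11.63 and 10.94 on the leaf arrays. On the leaf primordium arrays GRF6 averaged 13.09, GRF8 9.68, GRF4 10.52 and MAKIBA3, the coactivator gene described above, 12.27.

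TCP factors, which control organ growth, had 6 of 7 genes higher. PCF1, which binds the promoter of the replication gene PCNA, had signals of 12.69 to 13.42 (median 13.24) on the stamen arrays, against 10.65, 11.39 and 10.40 on the leaf arrays, a difference of 2.36 ± 0.17 (adjusted p = 2.4e-09), and PCF2, which binds there too, differed by 1.59 ± 0.13 (adjusted p = 8.3e-09). PCF5 was higher by 3.02 ± 0.30 (adjusted p = 1.4e-07). PCF8 differed by 2.96 ± 0.53 (adjusted p = 0.00016), but its leaf values were 8.60, 8.91 and 4.85, and stamen and leaf arrays overlapped. Without leaf replicate 3 it differed by 1.66.

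SPL factors act in phase change and panicle architecture. Of 13 genes 5 were higher and 2 lower. SPL14, also known as IPA1, had signals of 8.52 to 10.05 (median 9.16) on the stamen arrays, against 4.30, 4.12 and 4.02 on the leaf arrays, a difference of 5.02 ± 0.18 (adjusted p = 1.2e-13). SPL16, known for grain width, differed by 2.41 ± 0.27 (adjusted p = 6.4e-07) and SPL12 by 3.36 ± 0.29 (adjusted p = 2.4e-08). LG1, needed for the leaf ligule, was lower, at -1.38 ± 0.27 (adjusted p = 0.00033), with leaf values of 5.93, 3.90 and 5.89. Leaf replicate 2 was thus at the stamen level for LG1.

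The HD-Zip list, with 11 of 33 genes higher and 8 lower, holds several classes. Roc3, of class IV, which acts in the epidermis, had signals of 9.32 to 10.68 (median 10.08) on the stamen arrays, against 3.54, 4.27 and 5.07 on the leaf arrays, a difference of 5.80 ± 0.24 (adjusted p = 1.4e-12). HOX33 and hox32, of class III, which acts in organ polarity and vessels, were higher by 3.60 ± 0.17 (adjusted p = 5.2e-12) and 2.55 ± 0.37 (adjusted p = 1.5e-05). The genes with the largest falls were HOX6, with 4.24 to 4.86 (median 4.54) on the stamen arrays, against 8.12, 8.62 and 9.12 on the leaf arrays, a difference of -4.07 ± 0.22 (adjusted p = 4.2e-11), HOX15 at -3.77 ± 0.23 (adjusted p = 2e-10) and Hox22 at -3.53 ± 0.35 (adjusted p = 1.7e-07). HOX6 and Hox22 belong to class I, and several members of that class respond to drought.

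Of 10 MYB genes 1 was higher and 6 lower. MYBS1, which activates an α-amylase promoter when sugar is scarce, had signals of 4.74 to 5.94 (median 5.35) on the stamen arrays, against 10.46, 9.25 and 9.09 on the leaf arrays, a difference of -4.29 ± 0.23 (adjusted p = 3.3e-11). MYB4 was the only one higher, at 2.40 ± 0.43 (adjusted p = 0.00016), with overlap, and at 1.56 without leaf replicate 2. MYBS2, which represses the same promoter, was lower by 2 of its probe sets, at -2.99 ± 0.23 (adjusted p = 6.7e-09) and -3.58 ± 0.20 (adjusted p = 7.7e-11), and higher by another, 1.08 ± 0.16 (adjusted p = 1.8e-05). That rise was only just above the size required for a call. Of 12 AP2/ERF genes, RSR1, a regulator of starch synthesis, had 5.55 to 7.64 (median 6.35) on the stamen arrays, against 11.50, 10.62 and 11.51 on the leaf arrays, a difference of -4.80 ± 0.22 (adjusted p = 4.5e-12), and DREB2D was higher, with 4.62 to 7.33 (median 6.30) on the stamen arrays, against 2.59, 2.96 and 2.45 on the leaf arrays, a difference of 3.49 ± 0.18 (adjusted p = 2.1e-11). IBH1, a helix-loop-helix factor that opposes brassinosteroid-driven growth, had 3.61 to 4.47 (median 3.84) on the stamen arrays, against 9.11, 8.85 and 9.42 on the leaf arrays, a difference of -5.24 ± 0.15 (adjusted p = 7.1e-15). TGA2.1, a bZIP factor of defence responses, was lower, at -3.15 ± 0.16 (adjusted p = 1.4e-11), and OsbZIP79 was higher by 3.98 ± 0.29 (adjusted p = 2.2e-09).

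None of the 6 WRKY genes found was called by its brightest probe set, with differences from -1.02 to 0.91. At an unadjusted p below 0.05, limma had 3 of them higher and 1 lower, each by less than 1. A dimmer probe set of WRKY71 was called higher, at 1.73 ± 0.27 (adjusted p = 4.1e-05). The values of WRKY76, which represses defence genes, were 4.40 to 9.49 (median 5.50) on the stamen arrays, against 9.44, 5.81 and 7.35 on the leaf arrays. Both groups were spread widely and overlapped, and the difference was -1.02 ± 0.78 (adjusted p = 0.3). Of 6 clock genes, LHY, a morning gene, was lower, at -2.27 ± 0.38 (adjusted p = 7.6e-05), PRR1, an evening gene also called TOC1 in other plants, was higher by 2.00 ± 0.40 (adjusted p = 0.00049), and PRR73 was lower, at -1.22 ± 0.13 (adjusted p = 4.6e-07). Without leaf replicate 1, PRR1 was at 1.33, and PRR73 was at -0.92 and not called. A second probe set of PRR73 was not called, at -0.29 ± 0.22 (adjusted p = 0.3). The hour of collection is known to move such genes, and its part was not tested.

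**Figure D4:**
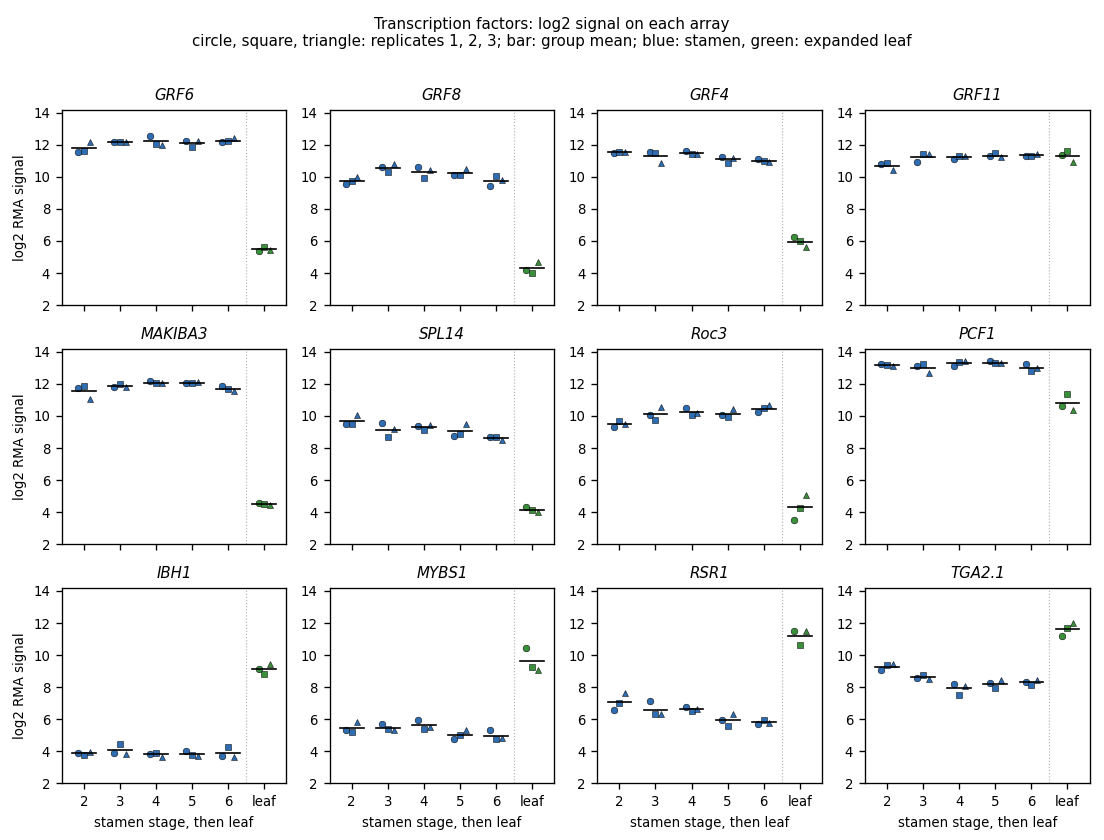
Log2 signals of 11 transcription factor genes and the coactivator gene MAKIBA3 on each stamen array (blue, by stage) and each expanded leaf array (green), with symbols for replicates and bars for group means. GRF6, GRF8, GRF4, MAKIBA3, SPL14, Roc3 and PCF1 lie higher on all stamen arrays, GRF11 overlaps, and IBH1, MYBS1, RSR1 and TGA2.1 lie lower.

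Of 11 genes of chromatin and DNA methylation 6 were higher and none lower (9 and 0 at an unadjusted p below 0.05). The CHG methyltransferase gene CMT3 had signals of 10.46 to 11.99 (median 11.07) on the stamen arrays, against 5.74, 5.45 and 4.87 on the leaf arrays, a difference of 5.81 ± 0.16 (adjusted p = 4.1e-15). Its mean on the leaf primordium arrays was 5.48, and that of MET1B was 5.62. JMJ705, a histone H3 demethylase, was higher by 2.82 ± 0.32 (adjusted p = 7.9e-07). Of 13 tubulin and actin genes 9 were higher and 2 lower. The β-tubulin gene TUB2 had 10.95 to 12.32 (median 11.74) on the stamen arrays, against 6.53, 6.95 and 7.11 on the leaf arrays, a difference of 4.87 ± 0.19 (adjusted p = 3.9e-13), and the actin gene ACT7 was lower, at -2.09 ± 0.17 (adjusted p = 8.9e-09).

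Cytokinin genes were lower more often than higher, with 10 and 4 of 29. LOGL9, of the family that releases active cytokinin, had 3.72 to 4.72 (median 4.17) on the stamen arrays, against 7.32, 8.44 and 10.65 on the leaf arrays, a difference of -4.59 ± 0.40 (adjusted p = 3e-08), and LOGL5 differed by -4.19 ± 0.22 (adjusted p = 2.8e-11). The response regulator genes RR2 and RR9 were lower, at -2.70 ± 0.30 (adjusted p = 5.4e-07) and -2.12 ± 0.31 (adjusted p = 1.8e-05). CKX5, a cytokinin oxidase gene, was higher by 1.91 ± 0.33 (adjusted p = 0.0001). Of 11 gibberellin genes, the synthesis genes CPS1, OsKO2 and KAO were lower, at -2.92 ± 0.17 (adjusted p = 8.7e-11), -1.43 ± 0.10 (adjusted p = 1.3e-09) and -3.09 ± 0.33 (adjusted p = 4e-07), and the receptor gene gid1 was the only one higher, at 1.09 ± 0.20 (adjusted p = 0.00025), though it was at 0.95 without leaf replicate 1 and 0.82 without leaf replicate 2 and then not called.

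Genes also changed within the stamen series. Against the expanded leaf, stages 2 to 6 had 7134 (12.5%), 7556 (13.2%), 7515 (13.1%), 8009 (14.0%) and 8217 (14.4%) probe sets higher. The same stages had 5436 (9.49%), 5503 (9.61%), 5611 (9.80%), 5681 (9.92%) and 5873 (10.3%) lower, and all 5 comparisons share the leaf arrays. Change over stages was called where the F test of the 5 stages had an adjusted p below 0.05 and the stage means spanned at least 1. By this rule 4139 probe sets (7.23%) changed, and 2250 (16.9%) of the 13331 called against the leaf did so. At gene level 1910 of 17905 (10.7%) changed. In the lists, 5 of 20 bZIP, 4 of 8 NAC, 4 of 10 MYB and 4 of 12 bHLH genes changed. So did 3 of 4 proteinase inhibitors, 3 of 5 late tapetum and pollen wall genes, 6 of 18 sugar carriers and 7 of 33 HD-Zip genes. The GRFs, with 1 of 10, were near the share over all genes. None of 9 cellulose synthases, 11 chitinase and PR-protein genes or 12 nitrogen carriers changed, also near that share for lists this short. Most lists are short, and none was tested against the share over all genes. The 3' minus 5' difference of the arrays also moved with stage. It lay between 3.19 and 3.41 at stage 2 and between 1.27 and 1.94 at stage 6, and with it as a covariate 2124 probe sets changed over stages. Its part in single results was not tested.

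BHLH142, which acts in tapetum differentiation, had stage means of 4.69, 7.88, 8.99, 9.40 and 9.89, against 3.63, 3.65 and 3.54 on the leaf arrays. One stage 2 array, at 3.50, lay below all leaf arrays, and the difference was 4.27 at stage 3. OsbZIP79 climbed through 7.44, 9.70, 9.70, 10.39 and 10.85, against leaf values of 5.57, 5.82 and 5.53, and SPL12 through 7.72, 9.19, 9.60, 10.21 and 10.97. TDR, another tapetum factor, was not called over all stages, at 0.74 ± 0.18 (adjusted p = 0.0022), with stage means of 4.17, 4.14, 4.55, 5.88 and 6.75. GAMYB, the gibberellin-responsive factor of anthers, was not called either, at 0.71 ± 0.24 (adjusted p = 0.023), with stage means of 6.71, 7.68, 7.87, 9.07 and 9.93 and leaf values of 7.35, 7.77 and 7.51. Its stage 2 mean was below and its stage 6 mean above all leaf arrays.

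Other genes went down with stage. TIP3-1, a tonoplast channel best known from seeds, had stage means of 10.50, 8.03, 6.05, 5.07 and 3.96, against 4.43, 4.08 and 4.17 on the leaf arrays, with a mean difference of 2.50 ± 0.57 (adjusted p = 0.0014). Among single stages only 2 and 3 were called. The NAC factor gene NAC4 had 11.61, 11.57, 11.03, 9.85 and 7.86, a range of 3.76, and NAC5 and NAC6 had 10.36, 9.36, 9.25, 7.84 and 7.36 and 11.60, 11.11, 10.75, 9.67 and 8.67. The last 2 were called lower than in the leaf, by -1.96 ± 0.30 (adjusted p = 2.9e-05) and -1.27 ± 0.29 (adjusted p = 0.0015), while at stage 2 they differed from the leaf by -0.44 and -0.03. RBBI3.3, a Bowman-Birk proteinase inhibitor, had 12.16, 11.24, 10.48, 9.55 and 7.94, and its difference over all stages was not called, at -1.07 ± 0.46 (adjusted p = 0.064).

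**Figure D5:**
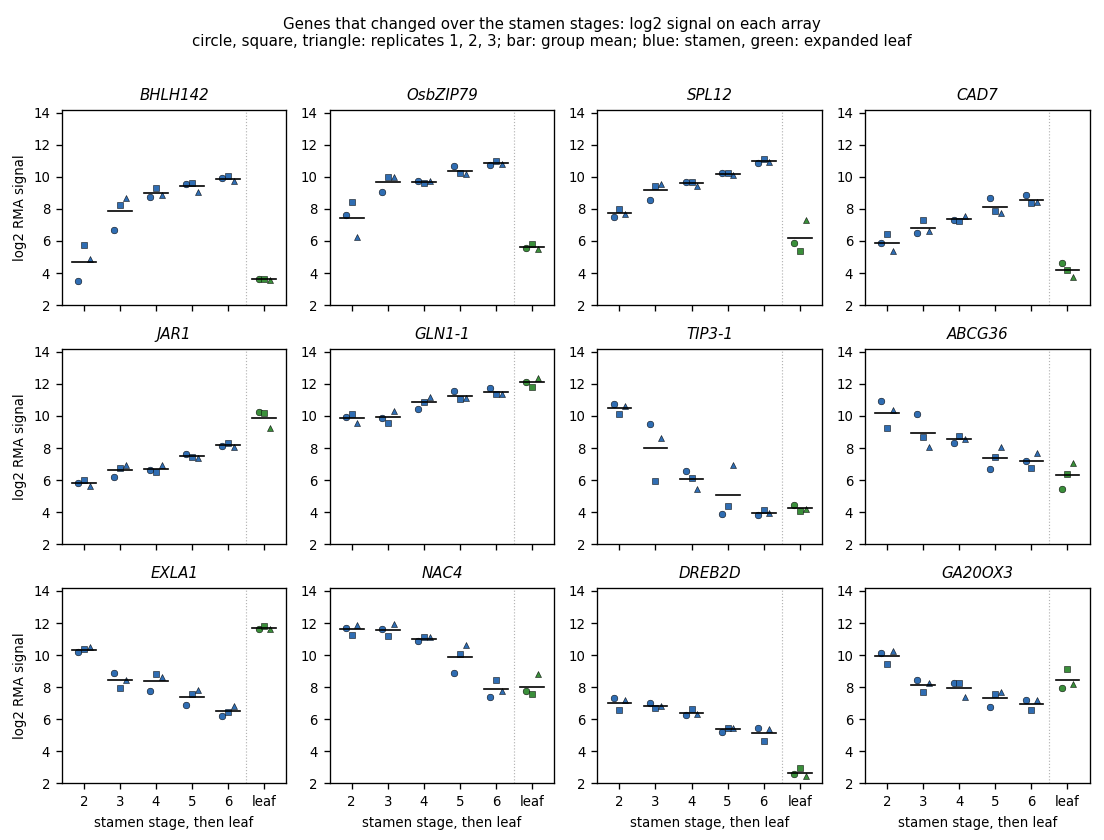
Log2 signals of 12 genes that changed over the stamen stages, on each stamen array (blue, by stage) and each expanded leaf array (green), with symbols for replicates and bars for group means. BHLH142, OsbZIP79, SPL12, CAD7, JAR1 and GLN1-1 have their highest stamen means at stage 6, and TIP3-1, ABCG36, EXLA1, DREB2D and GA20OX3 have theirs at stage 2.

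Probe sets set a limit to some of these values. Of the 591 list genes 78 were read from probe sets that the manufacturer's suffix marks as able to bind transcripts of more than 1 gene. Among the genes described here these are Pi21, PIP2-2, Lsi6, TIP3-1, SWEET11, SWEET14, NRT2.3, DUR3, HAK22, PIN3A, GSTZ3, TIFY6B, TIFY10A, TIFY11B, PCF8, RSR1, HOX15, GAMYB, OsKO2, ACT7 and RBBI3.3, and the values of SWEET2B, cdsp32 and BGLU16 by their brighter probe sets. Among the 8577 genes with a called probe set, 37 had probe sets called in opposite directions, and the 9 of them with an informative name were SUT2, 4CL4, MYBS2, GLR3.1, BGLU13, BAT1, FH6, Anp32 and CHLH. Values above are of the brightest probe set of a gene unless stated. ABCG36, CAD8C, DREB2D, EXPA7, EXPB17, GSTU6, HAK22, IBH1, LHY, NAC6, NIA1, OC-I, PIN3A and gid1, all called by that probe set, also had at least 1 dimmer probe set that was not called.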

How the data were processed

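Total RNA of 50 to 300 ng was amplified in 2 cycles, labelled with biotin and hybridised to the Affymetrix rice array, 1 array per sample, per the labels' protocols. The deposited values are log2 signals that the authors made with RMA, per the submitters' processing notes, and array medians lay between 5.82 and 5.88. The labels number 3 biological replicates per group. Their number, not a read depth, limits the precision.

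The 123 control probe sets were left out. One model with 7 group means was fitted to all 21 arrays and 57258 probe sets with limma 3.58.1 in R 4.3.3, so all groups share one estimate of the spread, and p-values were adjusted over all probe sets (Benjamini-Hochberg). Values after ± are standard errors and n is 15 stamen and 3 leaf arrays. Probe sets were named through the platform annotation, 22436 with 1 gene, 95 with several (not named) and 34727 with none. Lists were patterns on symbols and synonyms, and of 48 written 40 found at least 3 genes. Members and lists were chosen with earlier results of these data known.

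Named genes were the 15 largest rises and falls without overlap between groups and up to 5 called genes in each direction per list. Within a list, genes without overlap were taken first. Also named were all members of lists of 12 or fewer, the marker genes and genes whose probe sets disagree. BHLH142, GAMYB, TDR, NAC4, NAC5, NAC6 and RBBI3.3 fall under the rule on short lists. AOS1, TIFY10A, TIFY11B, TIFY11C and TIFY11D fall outside it and were chosen after their values were seen. The same model was tested on simulated data. Alternatives were another normalization, centring, a filter, other variance estimates, other thresholds, a replicate block, a covariate and leaving out each array.

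Replicate numbers were not treated as pairs. Deviations from group means correlated between -0.321 and 0.36 for arrays of the same number (median -0.013). For arrays of different numbers they correlated between -0.509 and 0.469 (median 0.003). These values cannot show whether samples were collected as matched sets.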

Additional observations from a re-analysis of the deposited data

Results flagged for a closer look

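GA20OX3, a gibberellin 20-oxidase gene, was picked out because single stamen stages were called in opposite directions against the same 3 expanded leaf arrays. Its stage 2 arrays were higher, with a difference of 1.5, and its stage 6 arrays were lower, with -1.46. Stage means were 9.94, 8.15, 7.96, 7.35 and 6.98 from stage 2 to stage 6, against 7.96, 9.14 and 8.19 on the leaf arrays. The F test over the 5 stages in limma gave an adjusted p of 0.00018, and the mean over stages was not called, at -0.36 (adjusted p = 0.28). Over all genes, 26 had single stages called in opposite directions.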

How the results depend on the processing

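With 7623 probe sets higher, 5708 lower and 4139 changing over stages in the results as given, counts moved by over 1.5 times under a few alternatives. Keeping only probe sets above the median mean left 3537 lower. Array weights gave 6408 changing over stages. With no fold threshold there were 12965 higher, 14878 lower and 6294 changing over stages. At an adjusted p under 0.01, 2567 changed over stages, and with the 3' minus 5' difference as a covariate 2124 did. Leaving out 1 array at a time gave 7291 to 7978 higher, 5675 to 5796 lower and 3037 to 5040 changing over stages. With replicate number as a block, although it was not treated as a pairing in the main model, the counts were 7623, 5703 and 4055. The share of calls that were higher was 57.2%, against 66.2% above the median mean and 46.6% with no fold threshold. Of 7972 values of the 251 named genes called, 7873 kept direction and call, 99 lost the call and 0 reversed, and 35 genes lost it when an array was left out, 16 of them without expanded leaf replicate 1, 15 without replicate 2 and 8 without replicate 3. Only 3 leaf arrays stand for the leaf. Probe sets near the bottom of the signal range understate a difference, and maturity, growing place and time of day cannot be told apart from organ.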
